A study of Mus musculus with 15 samples.

Results

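Vcam1 and Icam1 encode cell surface molecules that leukocytes grip when they leave the blood. They were taken by symbol from a table of exon read counts of cultured mouse hepatocytes and are 2 of its 38087 gene rows. Both were picked with their levels across the 5 groups of the study already known, so their own levels and differences are given as a description and without a test.

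VCAM1 and ICAM1 belong to the immunoglobulin superfamily. VCAM1 is bound by the integrin of Itga4 and Itgb1 on lymphocytes and monocytes, and ICAM1 by the integrins that Itgb2 forms with Itgal or Itgam. In liver both are best known from the sinusoidal endothelium, and ICAM1 also appears on inflamed hepatocytes. Tumour necrosis factor and interleukin-1 raise both genes through the transcription factor NF-kB, and interferon and STAT factors act on Icam1.

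Cryopreserved hepatocytes of CD-1 donor mice were seeded at 200000 cells per well on collagen and given 6 h to attach. They were then overlaid with Geltrex matrix and, from the next day, held for 24 h in medium with 25% mouse serum. Mouse growth hormone at 8 ng/ml, or PBS as vehicle, followed for 2 h before RNA was taken. All groups shared 0.1 uM dexamethasone, a glucocorticoid that dampens inflammatory genes, as well as insulin, transferrin and linoleic acid in the medium.

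The 5 groups are male hepatocytes in serum of conventionally raised (ConvR) male mice, female hepatocytes in the same male serum, female hepatocytes in serum of germ-free (GF) female mice with growth hormone, female hepatocytes in germ-free female serum without it, and female hepatocytes in serum of conventionally raised females. They had 3, 3, 3, 2 and 2 libraries that could be used; both groups of 2 hold replicates 2 and 3. The labels give neither the age of donors and serum mice nor whether a replicate is a culture, an animal or a pool of serum of its own. The p-values below therefore measure a spread between samples that may be technical. Male and female cells come from different donors, so that donor sex and donor cannot be told apart.

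Libraries held 34097400 to 48742274 counts. Levels are given as CPM, the counts of a gene scaled to the same total in every library, with library sizes adjusted by TMM (trimmed mean of M-values). Hepatocyte markers, 11 genes such as Alb, Ttr and Apob, summed to 20100 to 40500 CPM in the 13 libraries, whereas 14 leukocyte markers, among them Ptprc, Cd3e and S100a8, summed to 1.99 to 4.68 CPM. Xist, the noncoding RNA of the inactive X chromosome, was highest in growth hormone replicate 1 (679 CPM of the library total) and conventional female serum replicate 2 (488 CPM), against 277 to 397 CPM in the other female libraries. Within their groups these libraries also had the highest Vcam1 and Icam1, so values without them are given below.

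Vcam1 (ENSMUSG00000027962) lies on the minus strand of mm10 chromosome 3, from 116109949 to 116129688, with up to 9 exons in a coding transcript. Icam1 (ENSMUSG00000037405) lies on the plus strand of chromosome 9, from 21015985 to 21028817, with 7 exons. An antisense gene model covers 61 exon bases of Vcam1 (Gm43109) and 511 of Icam1 (Gm47079), and the strand setting of the counting is not given, so reads of these models cannot be told apart from those of the members. Values are exon counts and thus cover coding and untranslated exons alike. Icam4 and Icam5, relatives of Icam1, follow it on the same strand at distances of 556 and 3256 bases.

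The sequence around the start of Icam1 is shown because inducing signals reach the gene through elements there. It is the RefSeq window of GRCm38.p6 (the assembly that mm10 names), plus strand, chr9:21015690-21015989, with 250 bases before and 50 after the RefSeq start. Capitals mark, in order, the NF-kB core known from the human ICAM1 promoter (GGAAATTCC), a STAT element (TTCNNNGAA) and a TATA box (TATAAAA).

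Icam1: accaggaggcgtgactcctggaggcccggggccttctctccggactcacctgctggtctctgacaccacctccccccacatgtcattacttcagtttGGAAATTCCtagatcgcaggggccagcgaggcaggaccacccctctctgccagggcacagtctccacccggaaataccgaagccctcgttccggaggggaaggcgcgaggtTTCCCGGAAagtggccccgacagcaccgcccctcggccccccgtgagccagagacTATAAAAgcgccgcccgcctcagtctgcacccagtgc

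These matches begin 198, 87 and 32 bases before the start of Icam1 in GENCODE M21. The RefSeq start that defines the window lies further upstream, and relative to it the matches begin at -153, -42 and 13. The TATA box thus lies after the RefSeq start. Both strands were searched, and the 3 matches share no base. Among 32851 promoter windows of this length, 0.317% held the NF-kB core, 8.30% the STAT element and 5.48% the TATA box. The general NF-kB consensus, present in 10.3% of windows, and the AP-1 element (TGANTCA), present in 7.81%, had no match. A match is a run of letters and no evidence of binding.

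Vcam1 had 48.5, 42.2 and 47.1 CPM (2291, 1778 and 2315 counts) in female cells in germ-free serum with growth hormone, and 6.53 and 6.10 CPM (272 and 219 counts) in the same serum without it. The hormone libraries thus stood far above, without overlap. Between these groups 32% of all genes were without overlap, counting both directions. In conventional male serum it had 7.59, 6.21 and 6.80 CPM in male cells and 5.09, 8.67 and 7.18 CPM in female cells. In conventional female serum it had 10.8 and 8.39 CPM in female cells. Outside the hormone group no library reached 11 CPM, and the group means ran over a narrow band.

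Means of Vcam1 were 6.86 ± 0.693 CPM (SD, n = 3) in male cells in male serum, 6.98 ± 1.80 (n = 3) in female cells in male serum, 45.9 ± 3.28 (n = 3) with hormone, 6.32 ± 0.306 (n = 2) in germ-free serum without hormone and 9.59 ± 1.70 (n = 2) in conventional female serum. In order of level, the hormone group led conventional female serum by a ratio of 4.79 without overlap. The next neighbours were conventional female serum, female cells in male serum, male cells in male serum and germ-free serum, and each of these overlapped the next.

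Icam1 had 219, 168 and 178 CPM (10338, 7059 and 8752 counts) in germ-free serum with hormone, against 105 and 97.3 CPM (4366 and 3492 counts) without hormone. The hormone libraries were again the highest. In conventional male serum Icam1 had 82.1, 76.8 and 80.9 CPM in male cells and 95.2, 107 and 106 CPM in female cells, so that the male cells held the 3 lowest libraries of all. In conventional female serum it had 130 and 122 CPM, which put that group second without overlap on either side.

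Group means of Icam1 were 79.9 ± 2.78 CPM (SD, n = 3) in male cells in male serum, 103 ± 6.67 (n = 3) in female cells in male serum, 188 ± 26.9 (n = 3) with hormone, 101 ± 5.37 (n = 2) in germ-free serum and 126 ± 5.29 (n = 2) in conventional female serum. The hormone group exceeded conventional female serum by a ratio of 1.49, and that group exceeded female cells in male serum by 1.22. Female cells in male serum and in germ-free serum overlapped, with a ratio of 1.02. Germ-free serum exceeded male cells in male serum by 1.26 without overlap. Below the hormone group, Icam1 had steps without overlap and Vcam1 had none. Between male and female serum on female cells 34.9% of all genes were without overlap, so nothing particular to Icam1 is read from this. That share was not computed for germ-free serum against male cells, nor for the hormone group against conventional female serum.

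**Figure D1:**
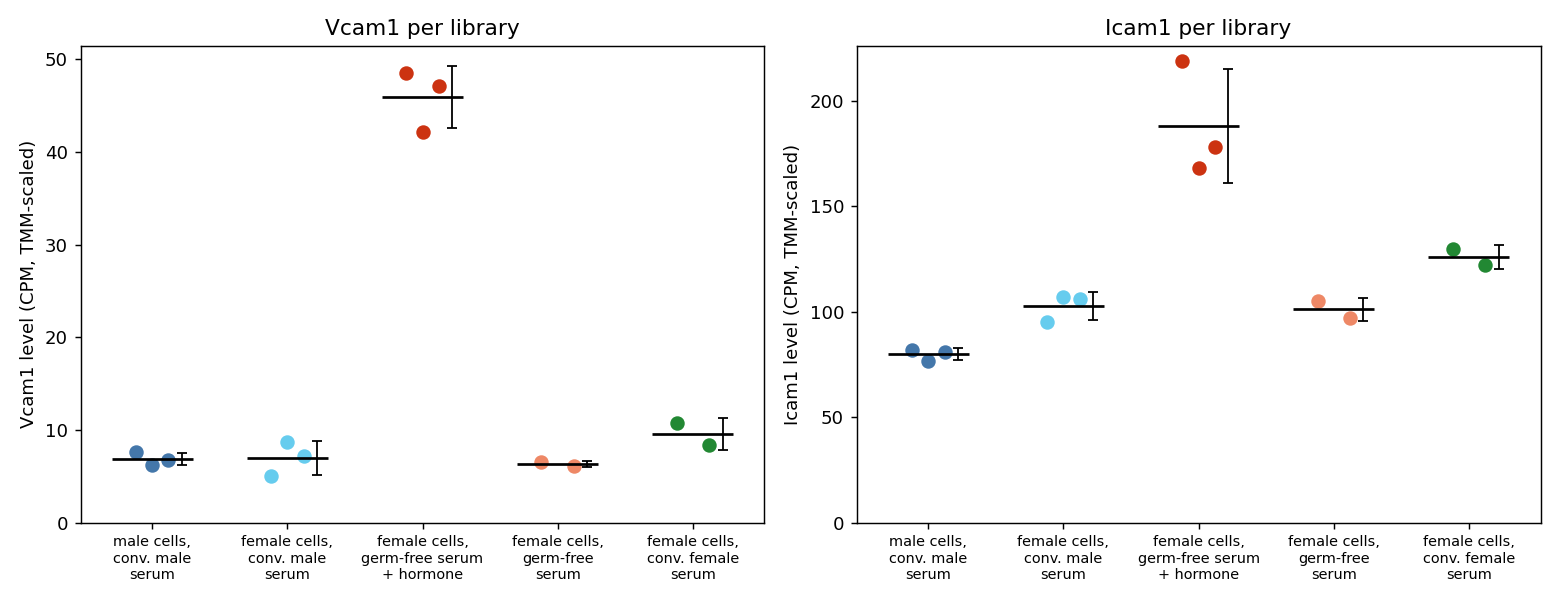
Levels of Vcam1 (left) and Icam1 (right) in each of 13 libraries, in CPM scaled by TMM, by group; points are libraries, horizontal lines are group means and bars are SD. The 3 hormone libraries stand at 42.2 to 48.5 CPM of Vcam1 and 168 to 219 CPM of Icam1, above every other library.

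Replicates of Vcam1 spread most among female cells in male serum, with a coefficient of variation of 25.8% where counting alone gives 6.32%. In germ-free serum without hormone the spread, 4.84%, was no larger than the counting error of 6.42%, while in conventional female serum the figures were 17.7% and 4.78%. For Icam1 the spread was 14.3% with hormone, against a counting error of 1.08%, and 3.47% to 6.48% in the other groups. Counting error was thus the smaller part of the spread of Icam1 in every group.

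Per kilobase of exon, Icam1 averaged 18.3 to 43.2 CPM and Vcam1 0.712 to 5.18 CPM in the 5 groups. The ratio of Icam1 to Vcam1 on this scale was 7.70 to 9.18 in the hormone libraries and 32.4 to 32.7 in germ-free serum without hormone. Hence the hormone libraries had a far more equal mix of both RNAs. In male serum it averaged 23.8 in male cells and ranged over 25.2 to 38.0 in female cells, and in conventional female serum it was 24.3 to 29.6. With the length of the longest coding transcript in place of all exons, the mean ratio was 5.6 with hormone and 21.9 without it.

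Among 25 adhesion molecules that leukocytes bind, members included, Icam1 ranked 5th per kilobase in male cells and 4th in each group of female cells. Fibronectin (Fn1), the junctional molecule F11r and Alcam stood above it in every group. Vcam1 ranked 8th to 11th. Icam2, the constitutive relative of Icam1 on endothelium, averaged 0.0687 to 0.175 CPM per kilobase, and the endothelial selectins Sele and Selp at most 0.125 and 0.0757. These hepatocyte cultures thus held ample Icam1 RNA beside little of Icam2 and both selectins.

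**Figure D2:**
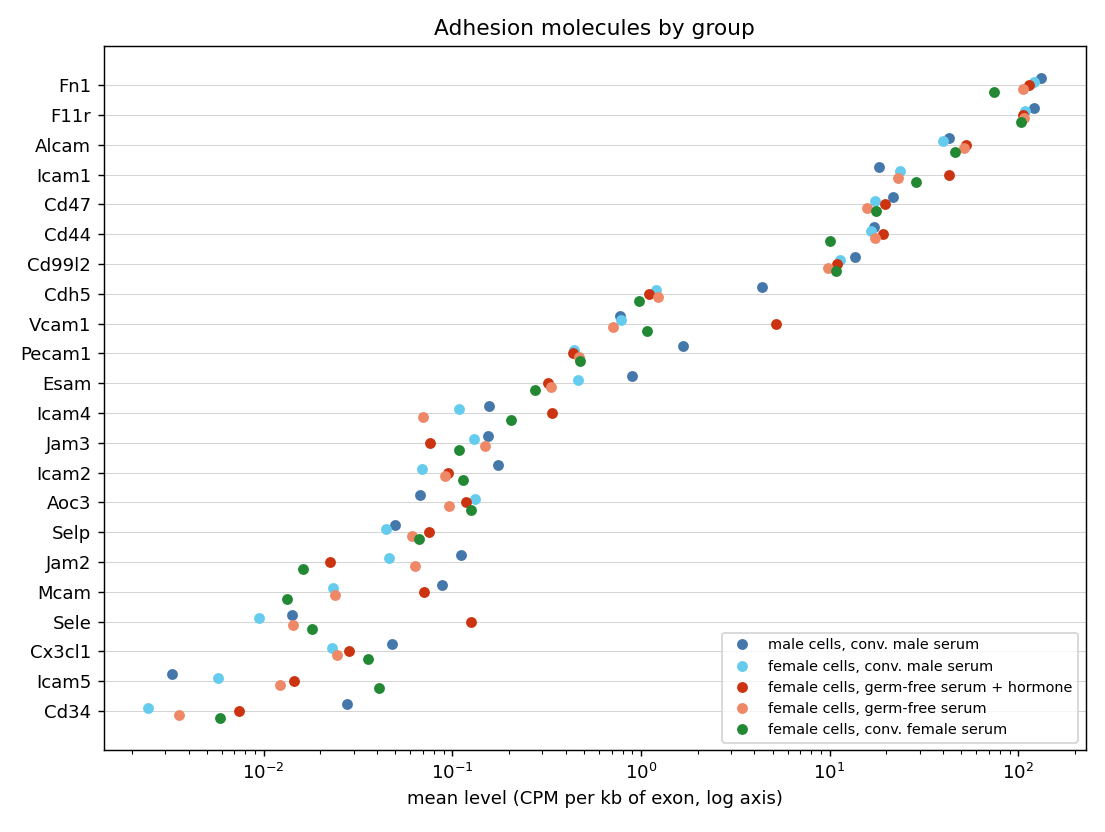
Mean level of adhesion molecules in the 5 groups, in CPM per kilobase of exon on a log axis, one point per group; 22 of 25 genes are drawn, and the other 3 were at 0 in at least 1 group. Icam1 lies among the more abundant genes at 18.3 to 43.2, and Vcam1 has its hormone point at 5.18, apart from the others at 0.712 to 1.08.

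Growth hormone was compared with its absence in germ-free serum (3 against 2 libraries of female cells). Vcam1 differed by 2.86 ± 0.174 (SE) on the log2 scale, the 19th highest of 17405 genes, and Icam1 by 0.90 ± 0.0972, the 344th highest. Pooled counts gave a ratio of 7.28 for Vcam1 (exact 95% interval 6.64 to 7.99) and 1.86 for Icam1 (1.82 to 1.91). These intervals cover counting error only. For both genes the libraries did not overlap, as for 32% of genes; since the members were chosen on this pattern, nothing is read from that share. Without hormone replicate 1 the differences were 2.82 and 0.77, and the median over all genes was -0.001.

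**Figure D3:**
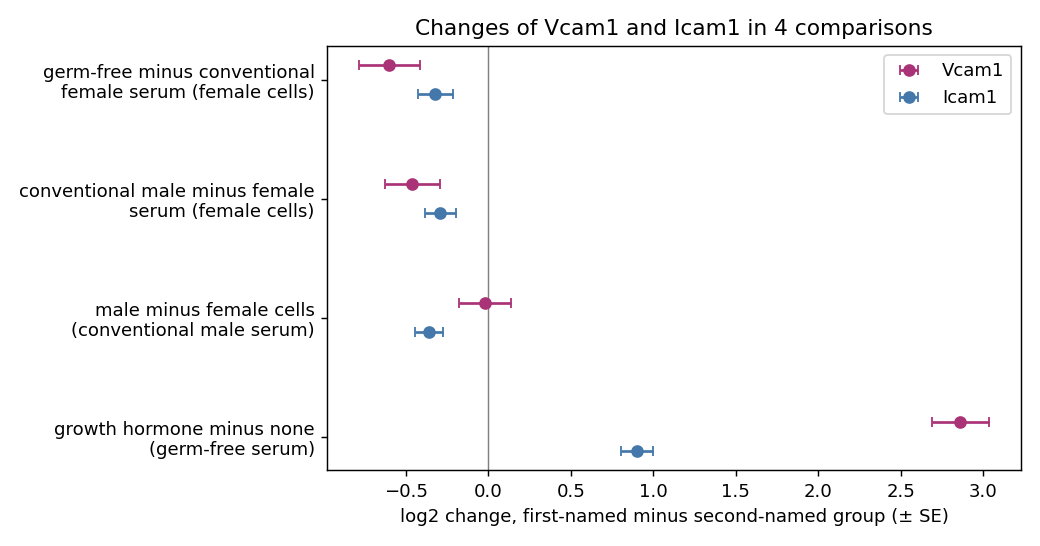
Log2 differences of Vcam1 and Icam1 with their SE in the 4 comparisons, first-named minus second-named group. Growth hormone stands apart at 2.86 and 0.90, and the other differences lie between -0.60 and -0.02.

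Of 24 tested cytokines that raise adhesion molecules and their receptors, 7 rose with hormone and 0 fell, at a median of 0.26. Among all genes 0.511% rose and 0.0747% fell (0.586% in all; edgeR quasi-likelihood test, adjusted p under 0.05). Il1b, interleukin-1 beta, had 365, 404 and 436 counts with hormone and 1 and 2 counts without it, a pooled ratio of 225 (exact 95% interval 76.7 to 1090). Il1a, interleukin-1 alpha, had 467, 524 and 539 counts with hormone and 3 and 4 without. Both genes were all but absent without hormone. They passed the low-count filter (minimum count 10) only through the hormone libraries and so could be called only as rises.

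Il6, interleukin-6, had 101, 154 and 121 counts with hormone and 2 and 0 without it (6.58 ± 0.716). Its germ-free libraries without hormone held too few counts to pass the low-count filter by themselves, so a fall could hardly have been called. The rises of Il1a, Il1b and Il6 are part of the count of 7, so nothing is read from that count beside the share of all genes. Tnf, tumour necrosis factor, had 76, 74 and 67 counts with hormone, against 14 and 6 without, a log2 change of 2.61 ± 0.477 (adjusted p = 0.0153). Per kilobase of exon, the hormone libraries averaged 5.62 ± 0.652 CPM of Il1a, 4.58 ± 0.496 of Il1b, 1.13 ± 0.33 of Il6 and 0.962 ± 0.121 of Tnf (SD, n = 3). On this scale both interleukin-1 genes stood close to Vcam1. That closeness depends on the length used, since all exons of Vcam1 span 8870 bases and its longest coding transcript 3469. Tlr2, a receptor for bacterial lipoproteins, rose by 1.37 ± 0.158, Tnfrsf1b, a receptor for tumour necrosis factor, by 0.69 and Osmr, the oncostatin M receptor, by 0.52. The receptors Tnfrsf1a (0.09 ± 0.0909) and Il1r1 (0.46 ± 0.132, adjusted p = 0.164) did not pass with edgeR, although Il1r1 did with DESeq2. Il1a and Il1b each overlap an antisense gene model. The count of 7 became 4 without germ-free replicate 2 or 3, when Tnf, Tnfrsf1b and Osmr lost their calls; Tnf also lost it without hormone replicate 1.

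Of 42 tested genes of the NF-kB pathway and its targets 14 rose with hormone and 0 fell, at a median of 0.32, and the others did not pass. Among all genes 0.511% rose and 0.0747% fell. Ccl20, a chemokine for lymphocytes and dendritic cells, had 517, 312 and 460 counts with hormone and 11 and 8 without it, a change of 5.22 ± 0.292 (adjusted p = 3.42e-08). Nfkbia, the inhibitor that NF-kB itself induces, had 139, 139 and 139 CPM with hormone and 80.9 and 82.1 CPM without (0.77 ± 0.0708, adjusted p = 9.56e-06). Its hormone libraries were closely alike and well above the others.

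Tnfaip3, which encodes the feedback inhibitor A20, had 322, 251 and 274 CPM with hormone and 124 and 118 CPM without (1.22 ± 0.0987). Tnfaip2, a target of tumour necrosis factor, had 54.0, 40.3 and 46.6 CPM with hormone, against 16.2 and 17.2 without (1.49 ± 0.127). Ccl2, the monocyte chemokine, averaged 752 ± 56.0 CPM (n = 3) with hormone and 409 ± 31.8 (n = 2) without (0.88 ± 0.081). The other rises were those of Cxcl5, Cxcl1, Nfkbiz, Csf1, Cxcl2, Birc2, Gadd45b, Ikbke and Birc3, of which Cxcl5 (adjusted p = 0.0326) did not pass once any 1 of the 5 libraries was left out. The chemokines Cxcl10 (-0.20 ± 0.22) and Ccl5 (-0.38 ± 0.334), named after their values were seen, and the subunits Rela (-0.13 ± 0.0997, adjusted p = 0.62) and Nfkb1 (0.17 ± 0.0662, adjusted p = 0.302) did not pass. Beside the 14 genes that rose, the difference of Vcam1 was exceeded by Ccl20 alone, and that of Icam1 lay between Cxcl2 (0.95) and Ccl2.

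**Figure D4:**
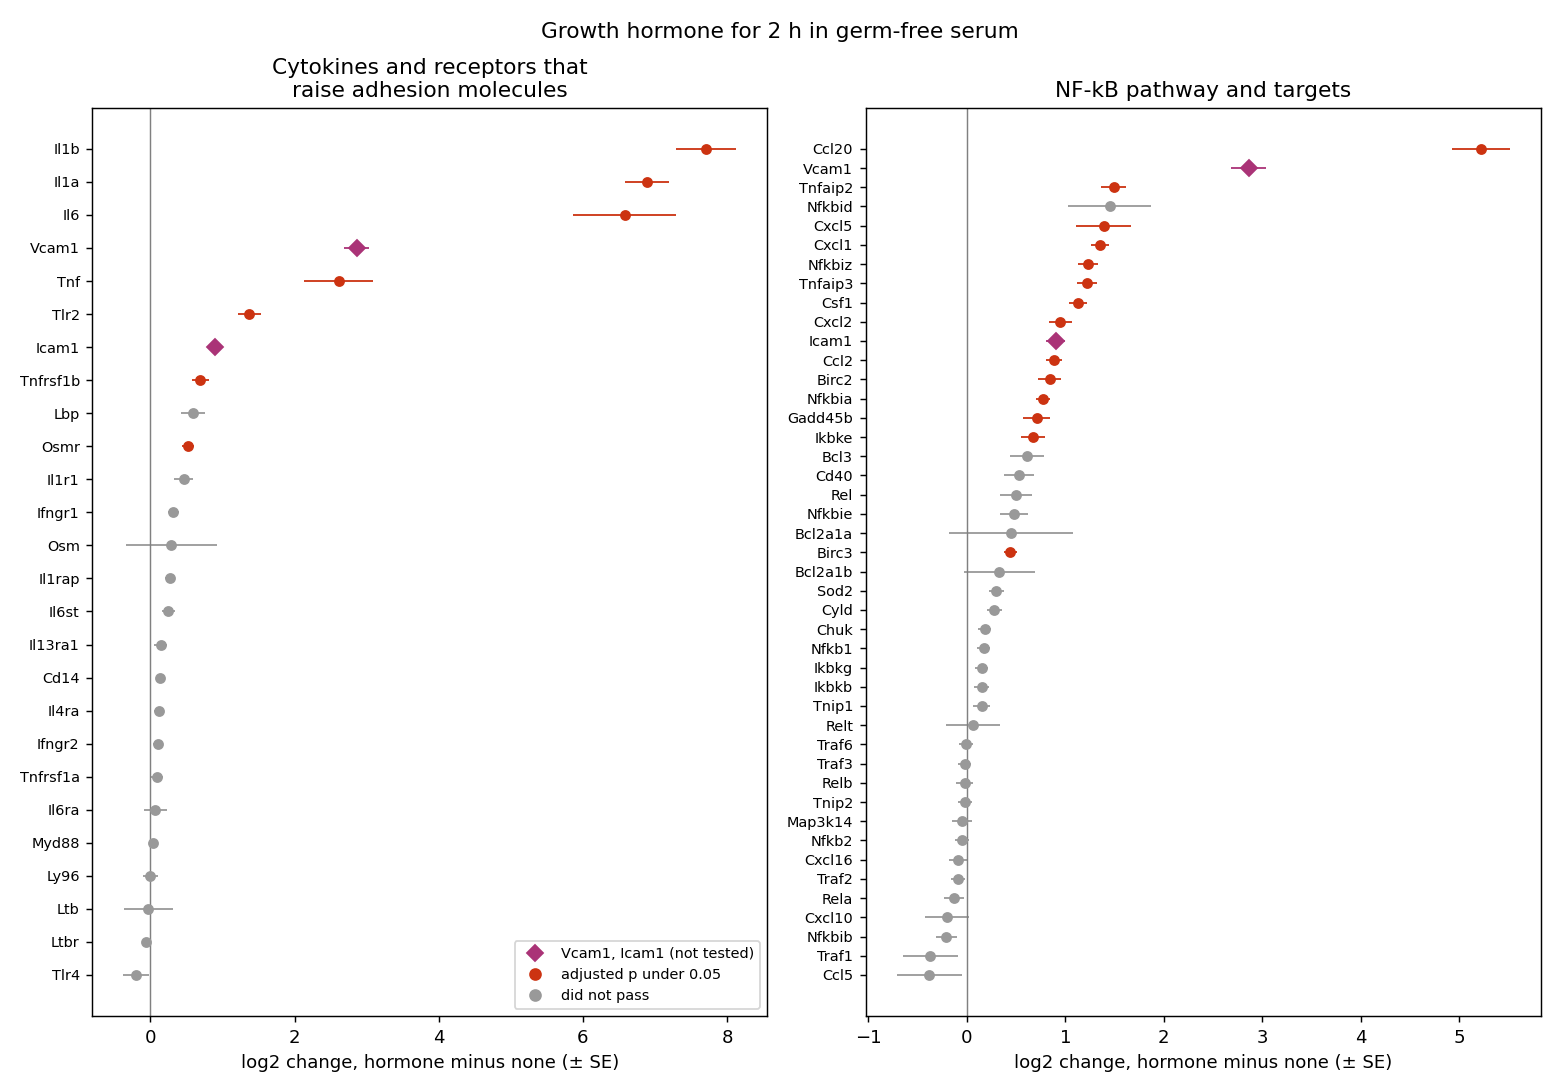
Log2 change with growth hormone in germ-free serum, with SE, of the cytokine and receptor list (left) and the NF-kB list (right), with Vcam1 and Icam1 set among them as diamonds. Filled red points passed the test, 7 on the left and 14 on the right, all to the right of 0.

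Of 23 interferon and STAT genes 2 rose and 0 fell, at a median of 0.09. For this list and the next, the share of all genes was 0.511% higher and 0.0747% lower. Socs3, a cytokine feedback inhibitor, rose by 0.69 ± 0.11, and Irf1, a transcription factor that interferons induce, had 58.3, 52.5 and 55.7 CPM with hormone and 32.1 and 40.2 CPM without (0.62 ± 0.092, adjusted p = 0.00237). Neither passed without germ-free replicate 2. Of 28 other factors known on adhesion promoters only Cebpd rose (1.87 ± 0.21), at 20.4 ± 4.46 CPM (n = 3) with hormone and 5.61 ± 0.0885 (n = 2) without. Ccl2, Irf1 and Cebpd overlap another gene model on the opposite strand.

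Of 17 tested adhesion molecules other than the members, edgeR called 0 with hormone and DESeq2 0, and 4 (Cd47, Sele, Icam4 and Jam2, named after their values were seen) had an unadjusted p under 0.05. Sele, E-selectin, had 21, 17 and 12 counts with hormone and 0 and 3 without it (3.12 ± 1.00, adjusted p = 0.214). Icam4, the neighbour of Icam1, had 20, 10 and 23 counts with hormone and 3 and 3 without. Such counts are near the limit of what this depth can compare. Of all genes edgeR called 0.586% with hormone.

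Of 7 tested integrins and other receptors that bind these molecules, edgeR and DESeq2 called 0, with 0 at an unadjusted p under 0.05. Itga4 and Itgal averaged 0.208 ± 0.182 and 0.241 ± 0.11 CPM (n = 3) with hormone and 0.204 ± 0.0517 and 0.172 ± 0.164 (n = 2) without it. Among 19 proteases and anchors that shed or tether VCAM1 and ICAM1, such as Adam17 and Ezr, both tools called 0, and 4 had an unadjusted p under 0.05. Itgb2 averaged 2.58 ± 0.132 CPM with hormone and 3.02 ± 0.286 without. Itgb1, which hepatocytes express too, was at 815 ± 17.3 and 767 ± 35.9 CPM, so of the receptors only this shared subunit was abundant.

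Markers of other liver cells gave these sums. Those of sinusoidal endothelium (16 genes) were at 47.3 to 49.3 CPM with hormone and 48.1 to 48.2 without. Those of Kupffer cells and macrophages (14 genes) were at 91.2 to 111 CPM with hormone and 129 to 138 without. Those of stellate cells and fibroblasts (16 genes) stood at 25.9 to 37.5 and 43.1 to 46.9 CPM. With hormone the macrophage and stellate sums lay below those without it, and the endothelial sums spanned them. Hepatocyte markers (11 genes) summed to 21700 to 27300 CPM with hormone and 20100 to 20500 without, also without overlap. Their part in the higher Vcam1 and Icam1 was not tested.

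No marker was at 0 in all libraries; 3 endothelial, 9 macrophage and 9 stellate genes averaged under 1 CPM. Of the 6 marker lists edgeR called 0 members with hormone, while DESeq2 called 1 hepatocyte and 1 macrophage marker. At an unadjusted p under 0.05 there were 2 endothelial, 2 macrophage, 4 stellate, 6 hepatocyte, 1 cholangiocyte and 2 leukocyte genes. In such bulk samples fewer cells of a type and less RNA per cell cannot be told apart.

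Germ-free serum was compared with conventional serum of females on female cells (2 against 2 libraries). Vcam1 differed by -0.60 ± 0.184 on the log2 scale and Icam1 by -0.32 ± 0.104, both lower in germ-free serum. Their libraries did not overlap, and those of 49.9% of all genes did not either, counting both directions. Without conventional replicate 2 the differences were -0.41 and -0.28. These conventional libraries also serve the comparison of male with female serum, and the germ-free ones that of hormone.

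Genes around the adhesion molecules moved in both directions. Of 42 NF-kB genes 4 rose and 7 fell, where 2.86% of all genes rose and 3.54% fell (6.41% in all), at a median of -0.05. Tnfaip2 averaged 16.7 ± 0.745 CPM (n = 2) in germ-free serum and 23.6 ± 1.95 (n = 2) in conventional serum (-0.50 ± 0.135, adjusted p = 0.0385), and Cxcl1, a neutrophil chemokine, 98.3 ± 6.72 and 138 ± 3.83 CPM (-0.49 ± 0.0952). Cxcl10, an interferon-inducible chemokine that overlaps Art3, rose to 18.9 ± 0.897 CPM, against 3.54 ± 0.104 in conventional serum. Tnfaip3 (-0.23 ± 0.104, adjusted p = 0.222) and Nfkbia (-0.13 ± 0.0762, adjusted p = 0.34) did not pass.

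Of 24 cytokines and receptors 0 rose and 4 fell in germ-free serum, led by Lbp, which carries bacterial endotoxin to its receptor, at 41.6 ± 0.282 CPM (n = 2), against 73.4 ± 18.6 (n = 2) in conventional serum (-0.82 ± 0.184, adjusted p = 0.0147). Interferon and STAT genes had 0 rises and 3 falls among 23, Psmb9, Tap1 and Gbp7, of which Psmb9 and Tap1 overlap each other. Beside these counts, 2.86% of all genes rose and 3.54% fell (6.41% in all). Among other adhesion molecules only Cd44, the hyaluronan receptor, rose (0.79 ± 0.139), as did Itgb1 (0.31) among the integrins and the membrane linkers Msn (0.51) and Ezr (0.29). The 11 NF-kB calls became 2 without conventional replicate 2, 1 without germ-free replicate 2 and 4 without germ-free replicate 3. All 4 cytokine and receptor calls and all 3 interferon calls were lost in each of these fits, while without conventional replicate 3 they numbered 7 and 5. Itgb1 passed in no fit with a library left out; Msn and Ezr both failed without germ-free replicate 2 or 3. Cd44 and Cxcl10 passed in all 4. Cd44, Msn and Ezr each overlap a gene model on the opposite strand, as does Fn1 below.

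Kupffer cell markers summed to 129 to 138 CPM in germ-free serum and 109 to 119 in conventional serum, and endothelial ones to 48.1 to 48.2 and 46.7 to 60.6. Hepatocyte markers summed to 20100 to 20500 CPM in germ-free serum and 22900 to 26700 in conventional serum, with 6 of 11 lower and 0 higher by edgeR. Stellate markers summed to 43.1 to 46.9 and 30.9 to 41.1 CPM with 0 of 13 called (2 at an unadjusted p under 0.05, 0 by DESeq2), and 1 of 9 cholangiocyte markers was called, Cftr, which was higher. The hepatocyte, macrophage and stellate sums thus did not overlap between the serums. Cd68 made up most of the macrophage sums, at 119 to 129 CPM in germ-free serum and 98.4 to 107 in conventional serum. The median change over the 9 tested macrophage markers was -0.097, opposite in sign to the sum. Their part in the lower Vcam1 and Icam1 was not tested. Of 16 endothelial and 9 tested macrophage markers edgeR called 0; at an unadjusted p under 0.05 there were 2 and 1, and DESeq2 called 1 and 0.

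Male serum was compared with female serum, both conventional, on female cells (3 against 2 libraries). Vcam1 differed by -0.46 ± 0.165 on the log2 scale with overlapping libraries, since replicate 2 in male serum (8.67 CPM) was above replicate 3 in female serum (8.39 CPM). Icam1 differed by -0.29 ± 0.0943 without overlap, as did 34.9% of genes. The value of Vcam1 was -0.27 without female serum replicate 2 and -0.28 without male serum replicate 1.

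Of 42 NF-kB genes 4 rose and 10 fell in male serum, where 3.95% of genes rose and 4.85% fell (8.8% in all), at a median of -0.07. Cxcl2, a neutrophil chemokine, averaged 9.59 ± 1.79 CPM (n = 3) in male serum and 27.1 ± 2.19 (n = 2) in female serum (-1.50 ± 0.115, adjusted p = 1.36e-06). Tnfaip2 changed by -0.73 ± 0.123, Tnfaip3 by -0.40 ± 0.0945 and Nfkbia by -0.26 ± 0.0692. Cxcl10 rose here as well (1.13 ± 0.268). Of 24 cytokines and receptors 0 rose and 4 fell, with Lbp at -0.93 ± 0.166 and the interferon gamma receptor Ifngr1 at -0.46 ± 0.0803.

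Interferon and STAT genes had 0 rises and 4 falls among 23, with Irf1 at -0.32 ± 0.0904 (adjusted p = 0.0386). Beside these counts, 3.95% of all genes rose and 4.85% fell (8.8% in all). Fn1, a ligand of the integrin that binds VCAM1, averaged 1430 ± 316 CPM (n = 3) in male serum and 869 ± 249 (n = 2) in female serum (0.71 ± 0.194, adjusted p = 0.0307). Cd44 rose by 0.71 ± 0.129 and Itgb1 by 0.34 ± 0.0702. Without female serum replicate 2 the NF-kB calls numbered 8, those of cytokines and receptors 2 and those of interferon genes 0. Without female serum replicate 3 the cytokine and receptor calls numbered 7 and Itgb1 did not pass, and without male serum replicate 1 or 3 the interferon calls numbered 2. Irf1 passed only without male serum replicate 2, Nfkbia only without male serum replicate 1, and Fn1 failed without male serum replicate 1 or 3 or female serum replicate 3. Cxcl10 failed without male serum replicate 1 or either female serum replicate, and Tnfaip3 and Lbp without female serum replicate 2. Of these genes Irf1, Nfkbia, Fn1, Itgb1, Cxcl10 and Tnfaip3 also failed in a fit of only the compared groups. Cxcl2, Tnfaip2, Ifngr1 and Cd44 passed whichever library was left out. Endothelial markers summed to 50.2 to 54.3 CPM in male serum and 46.7 to 60.6 in female serum, and macrophage markers to 85.2 to 103 and 109 to 119. Hepatocyte markers summed to 20500 to 22800 CPM in male serum and 22900 to 26700 in female serum. By edgeR 1 hepatocyte marker was higher and 4 of 11 were lower in male serum, the macrophage marker Cd68 was lower, and of 9 cholangiocyte markers 1 was higher and 1 lower. Cd68 made up most of the macrophage sums, while the median change over the 9 tested macrophage markers was 0.196, opposite in sign to the sum. Stellate markers summed to 23.6 to 34.0 CPM in male serum and 30.9 to 41.1 in female serum, with 0 of 13 tested called. The part of all these markers in the lower Vcam1 and Icam1 was not tested.

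Male hepatocytes were compared with female ones in conventional male serum (3 libraries each). Vcam1 differed by -0.02 ± 0.156 on the log2 scale and overlapped. Its sign turned with the library left out: it was -0.21 without female replicate 1 and 0.16 without female replicate 2. Icam1 differed by -0.36 ± 0.0856 without overlap, as did 47.6% of genes, and by -0.45 with library totals in place of TMM scaling.

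Of the 4 comparisons this had the most genes called, with 17.6% of genes higher and 19% lower in male cells (36.7% in all). Of 42 NF-kB genes 13 rose and 11 fell, at a median of -0.02 where that of all genes was -0.02. Tnfaip3 averaged 170 ± 8.07 CPM in male and 107 ± 5.39 in female cells (0.66 ± 0.0856; SD, n = 3 each), and Ccl2 641 ± 35.5 and 352 ± 13.3 (0.87 ± 0.0711). Both rose while Icam1 was lower in male cells. Tnfaip2 (-0.68 ± 0.119) and Rela (-0.36 ± 0.0899) fell.

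Of 24 cytokines and receptors 8 rose and 4 fell in male cells, with Lbp at 150 ± 3.84 CPM in male and 38.6 ± 4.57 in female cells (1.96 ± 0.154) and Il1r1 at 36.6 ± 1.9 and 19.2 ± 1.02 (0.93 ± 0.117). Interferon and STAT genes had 5 rises, such as B2m (0.79), which overlaps Patl2, and 6 falls, such as Cd274 (-0.68). Other promoter factors had 4 rises and 8 falls among 28, with Cebpd at 1.63 ± 0.189 and Ets1 at -1.02 ± 0.0635. Beside these counts, 36.7% of all genes were called in this comparison (17.6% higher and 19% lower).

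Of 17 tested adhesion molecules other than the members, 6 rose in male cells and 0 fell, at a median of 0.32. Among all genes 17.6% rose and 19% fell (36.7% in all), so the number called is not in itself particular to these molecules. Pecam1, which guides leukocytes between endothelial cells, averaged 10.4 ± 1.38 CPM in male and 2.74 ± 0.0637 in female cells (1.92 ± 0.134, adjusted p = 1.39e-08), and Cdh5, the cadherin of endothelial junctions, 18.3 ± 0.696 and 5.02 ± 0.724 (1.86 ± 0.148). Esam, Cd47, Cd99l2 and F11r also rose. Pecam1 and Cdh5 are endothelial markers, and 12 of 16 such markers rose, to a sum of 98.6 to 102 CPM in male cells, against 50.2 to 54.3 in female cells. Macrophage markers summed to 153 to 172 CPM in male and 85.2 to 103 in female cells, and hepatocyte markers to 39500 to 40500 and 20500 to 22800. Cd68 made up most of the macrophage sums, at 142 to 161 CPM in male and 70.9 to 92.1 in female cells. It was the only 1 of 9 tested macrophage markers called, and the median change over the 9 was -0.274. Stellate markers summed to 45.6 to 51.9 CPM in male and 23.6 to 34.0 in female cells, with 5 of 13 tested higher and 1 lower. The part of these cell types in the differences was not tested. The female cells in male serum serve this comparison and the one of male with female serum.

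Across libraries Vcam1 and Icam1 tracked each other. Over 13 libraries the log2 CPM values had Pearson r = 0.913 and Spearman rho = 0.852, and over the 10 libraries of female cells r = 0.968 and rho = 0.988. Libraries of a group are not independent of each other here, so these figures are a description and carry no p. Without the hormone libraries r was 0.619 over 10 libraries (rho = 0.673) and 0.913 over the 7 of female cells (rho = 0.964). The pair thus went together among female cells with or without the hormone group.

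Of 11379 genes compared, those most like Vcam1 over 13 libraries were Ccl20 (r = 0.990), Ripk2 (0.968), Csf1 (0.968), Il1a (0.958) and Il1b (0.958). Ripk2 is a kinase that signals to NF-kB and Csf1 the growth factor of macrophages. Over the female libraries Icam1 (0.968) and Tnfaip3 (0.966) entered this set in place of both interleukins. Without the hormone libraries r was lower, 0.782 for Ccl20 and 0.820 for Ripk2, but 0.262 for Csf1, -0.413 for Il1a and -0.419 for Il1b (n = 10). By rank, too, Il1a (rho = 0.352) and Il1b (rho = 0.403) were little like Vcam1 over 13 libraries. Outside the hormone group, however, means were only 0.0917 to 0.124 CPM for Il1a, 0.0182 to 0.0399 for Il1b and 0.244 to 0.548 for Ccl20. At such low counts their r without the hormone libraries and their ranks say little.

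Icam1 was most like Tnfaip2 (r = 0.980), Ppap2b (0.977), Socs2 (0.970), St6gal1 (0.949) and Ripk2 (0.947) over 13 libraries. Ppap2b encodes a lipid phosphate phosphatase, Socs2 a feedback inhibitor that growth hormone induces, and St6gal1 the liver sialyltransferase. Without the hormone libraries these kept r = 0.942, 0.939, 0.940, 0.969 and 0.736 (n = 10). The 4 leading genes thus stayed close to Icam1 without the hormone group. They were picked on 13 libraries that include these 10, so this is a description and no separate support. Like Icam1, these 4 genes had their lowest mean in male cells. With hormone, Socs2 rose by 0.92 ± 0.119 (adjusted p = 0.000494) and Ppap2b by 0.67 ± 0.124 (adjusted p = 0.0163), whereas St6gal1 (0.40 ± 0.0871, adjusted p = 0.0524) did not pass. Ppap2b lost its call without germ-free replicate 2 or 3. St6gal1 overlaps a gene model on the opposite strand and Ripk2 one on its own. Over the female libraries the set was Cenpe (0.981), Ripk2 (0.976), Birc2 (0.973), Tnfaip3 (0.972) and Ccl7 (0.972).

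**Figure D5:**
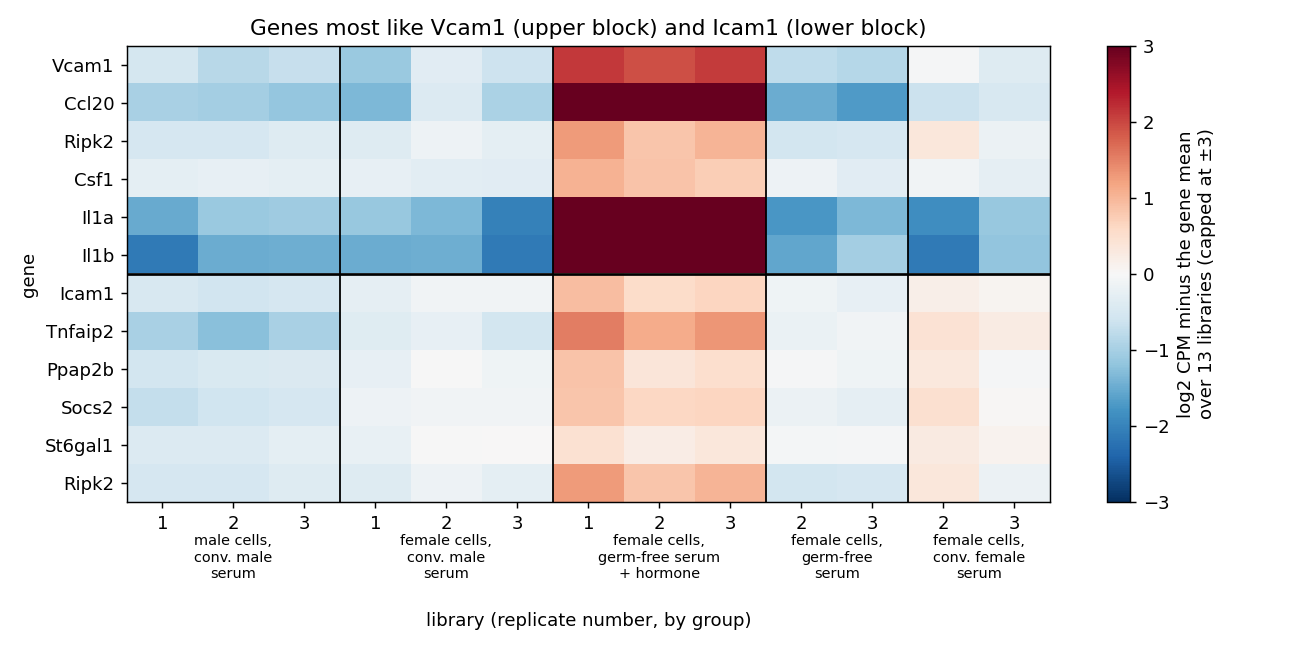
Log2 CPM of Vcam1, Icam1 and the 5 genes most like each over 13 libraries, as the difference from the gene's mean, by library and group; colours are capped at 3 on either side. Every gene drawn has its highest mean in the hormone group, and Icam1, Tnfaip2, Ppap2b, Socs2 and St6gal1 have their lowest in male cells.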

How the data were processed

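The authors deposited unscaled counts, whole numbers of reads on the exons of each gene. Libraries were stranded total RNA depleted of ribosomal RNA, per the labels' protocols. Reads were aligned with STAR 2.4.0i to mm10, per the submitters' processing notes; the sources used here do not name the counting program, its annotation or its strand setting. The table has 2 columns under 1 header name, which were not used, leaving 13 of 15 samples. Counts of the same group differed beyond sampling noise (chi-square per degree of freedom 5.46 to 53.36).

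Counts were scaled by TMM, filtered with filterByExpr (minimum count 10; 17405 genes) and fitted in 1 model of 5 groups with edgeR 4.0.16 in R 4.3.3 (8 residual degrees of freedom, biological coefficient of variation 9.02%). The 4 comparisons used its quasi-likelihood F test, two-sided; p-values were adjusted by Benjamini and Hochberg's method over all genes tested, with 0.05 as the threshold. The fit was tested on simulated data. Alternatives were DESeq2 1.42.0, library totals, no filter, a replicate block, only the compared groups, and leaving out each library. Coordinates and exon lengths come from GENCODE M21.

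Both members and the 7 gene lists and 6 marker lists were chosen with earlier results of these data known. From each list up to 3 called genes with the largest rise or fall per comparison could be named, together with a fixed set (Nfkbia, Tnfaip3, Rela, Nfkb1, Ccl2, Irf1, Icam2, Sele, Selp, Itga4, Itgb1, Itgal, Itgb2, Tnfrsf1a and Il1r1) and the 5 genes of highest Pearson r with each member (mean count at least 50); further called members were named after their values were seen. Gene models of prediction pipelines were passed over for likeness. The likeness without hormone libraries was chosen after seeing the data. Another gene of the fixed set is not reported here.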

Additional observations from a re-analysis of the deposited data

How the results depend on the processing

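Vcam1 and Icam1 kept their direction in all comparisons and alternatives except Vcam1 between male and female cells, which is near 0. With library totals Icam1 differed by -0.45 there. Leaving out 1 library at a time gave, for Vcam1 and Icam1, 2.81 to 2.92 and 0.77 to 0.97 with hormone, -0.77 to -0.41 and -0.37 to -0.27 in germ-free serum, -0.64 to -0.27 and -0.34 to -0.24 in male serum, and -0.21 to 0.16 and -0.42 to -0.32 in male cells. Counts of genes called ran from 33 to 190 with hormone (102 with all libraries), 269 to 1225 in germ-free serum (1115), 663 to 1652 in male serum (1532) and 5248 to 6090 in male cells (6379). A left-out library can leave 1 sample in a group, which is then assumed to vary like the others. With hormone DESeq2 called 272 genes and the fit without the low-count filter 796, and a fit of only the compared groups 156. In germ-free serum the counts were 1731 without the filter and 611 with only the compared groups, and in male serum 468 with only those. The cause of these shifts was not tested. With the replicate number as a block, 62 genes were called with hormone, 981 in germ-free serum, 1189 in male serum and 6266 in male cells. Same-numbered libraries deviated together only weakly (r of 0.04 to 0.21, 0.1, 0 to 0.02 and 0.02 to 0.16), so the numbers were not taken as pairing. The highest r, 0.52, joined differently numbered libraries, hormone replicate 1 and conventional female serum replicate 2, which also had the highest Xist. The part of this shared deviation in the likeness of Vcam1 and Icam1 was not tested. In the block the members differed by 2.89 and 0.86 with hormone. Leukocyte integrins and selectins, at a few counts per library, were too shallow for firm comparison.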
